A study of Homo sapiens with 6 samples.

Results

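Glycolysis with pyruvate entry and lactate export was followed through 32 genes, chosen by name from the deposited table because they encode the glucose and lactate carriers, the glycolytic enzymes and isoenzymes, and the gate by which pyruvate enters mitochondria. They occupy 33 of the table's 24846 rows, because the symbol ALDOA stands for 2 gene IDs. A549, a human lung adenocarcinoma cell line of epithelial type labelled wild type, was grown for 8 passages either in calcium-depleted DMEM/F12 medium that received 2 mM elemental calcium as amorphous calcium carbonate (ACC, 3 cultures), or in complete DMEM/F12 medium with its usual calcium chloride (control, 3 cultures). Serum at the same proportion and antibiotics were present in both media. By the study's methods the ACC suspension carried a tripolyphosphate stabilizer and supplied more calcium than the control medium, so the effects of the carbonate, its stabilizer and the amount of calcium cannot be told apart. All 6 libraries came from triplicate cultures of a single cell line, and the p-values measure only the spread among these cultures.

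Glycolysis splits 1 glucose into a pair of pyruvate molecules and yields ATP and NADH in the cytosol. Pyruvate is then either reduced to lactate, which restores NAD+ and leaves the cell together with a proton, or carried into mitochondria, where pyruvate dehydrogenase turns it into acetyl-CoA. Many tumor cells send much of their glucose to lactate even with oxygen present, the Warburg effect, and the acid they export is what the study set out to buffer with ACC.

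The libraries held 21771645 to 24805486 reads in genes. Mitochondrially encoded genes took 4.39 to 5.70% of the reads with ACC and 4.04 to 4.29% in control, so that share moved with the groups. Under a scaling by total reads that leaves those genes out, 9 members were higher and 14 lower, the counts given next for the deposited scaling. Epithelial markers summed to 165804 to 172271 normalized counts with ACC and 216556 to 221664 in control, nearly all of it KRT7, KRT8 and KRT18. Of these markers 7 of 7 passed the test, beside 43.3% of all genes tested and 67.5% of those with a mean normalized count of at least 1000. KRT7, KRT8 and KRT18 were lower, and KRT19, EPCAM, CDH1 and CLDN4 were higher. Leukocyte markers summed to at most 11.2 normalized counts in any library and endothelial markers to at most 14.3. Fibroblast markers summed to 459 to 542 with ACC and 2076 to 2277 in control, nearly all of it COL1A1. Of the fibroblast markers 5 of 5 tested were lower, beside 21.9% of all genes tested, while COL1A2 and DCN had at most 1.02 normalized counts in any library. The part of these shifts in the results was not tested. A normalized count is a read count divided by the library's size factor. In bulk RNA, a change in every cell and a change in the mix of cells cannot be told apart.

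From glucose uptake to lactate dehydrogenase most of the genes called were lower with ACC, led by PFKFB4 (fell by 47.9%), LDHA (fell by 39.1%), PFKFB3 (fell by 38.3%) and PFKP (fell by 28.7%). Within the same stretch HK1, PFKFB2, ALDOC, PGK1 and ENO2 were higher, and beyond it the lactate exporter SLC16A3, and PDK4, PDHB and MPC2 at the entry to mitochondria. Of the 33 rows, all of which passed the filter on low values, limma called 9 higher and 14 lower (adjusted p up to 0.05), and 10 did not pass. Over all 19318 genes tested, 21.3% were called higher and 21.9% lower (43.3% in either direction), and among the 4763 genes whose mean normalized count reached 1000, 31% were higher and 36.5% lower (67.5% in either direction). Of the 23 members that reach that mean, 7 were higher and 12 lower. The members' median log2 fold change was -0.09, with a median absolute change of 0.18, beside 0.00 and 0.26 over all genes tested and -0.02 and 0.18 over the abundant genes. Groups did not overlap for 24 rows, 9 higher and 15 lower, beside 25.5% higher and 25.9% lower over all genes. Of the 4763 abundant genes, 1640 were higher and 1920 lower without overlap, and of the 23 abundant members 7 and 13. At the study's thresholds, which add a 2-fold change and 30 reads in 1 library, 1 member was called (ALDOC, higher) and 0 were called lower, beside 2.77% higher and 2.24% lower of all genes and 1.62% and 1.49% of the abundant ones. ALDOC no longer reached 2-fold without control replicate 3 (log2 fold change 0.99), and PFKFB4 passed all thresholds without ACC replicate 2 (log2 fold change -1.03), so both counts rest on values at the edge. The 33 rows together took 1.62 to 1.69% of all reads with ACC and 1.86 to 1.90% in control, without overlap, and GAPDH, PKM, ENO1 and LDHA made up 1.06 to 1.12% and 1.24 to 1.28% of all reads. Fold changes here and below are of normalized count + 1, which shrinks the change of low-count genes.

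**Figure D1:**
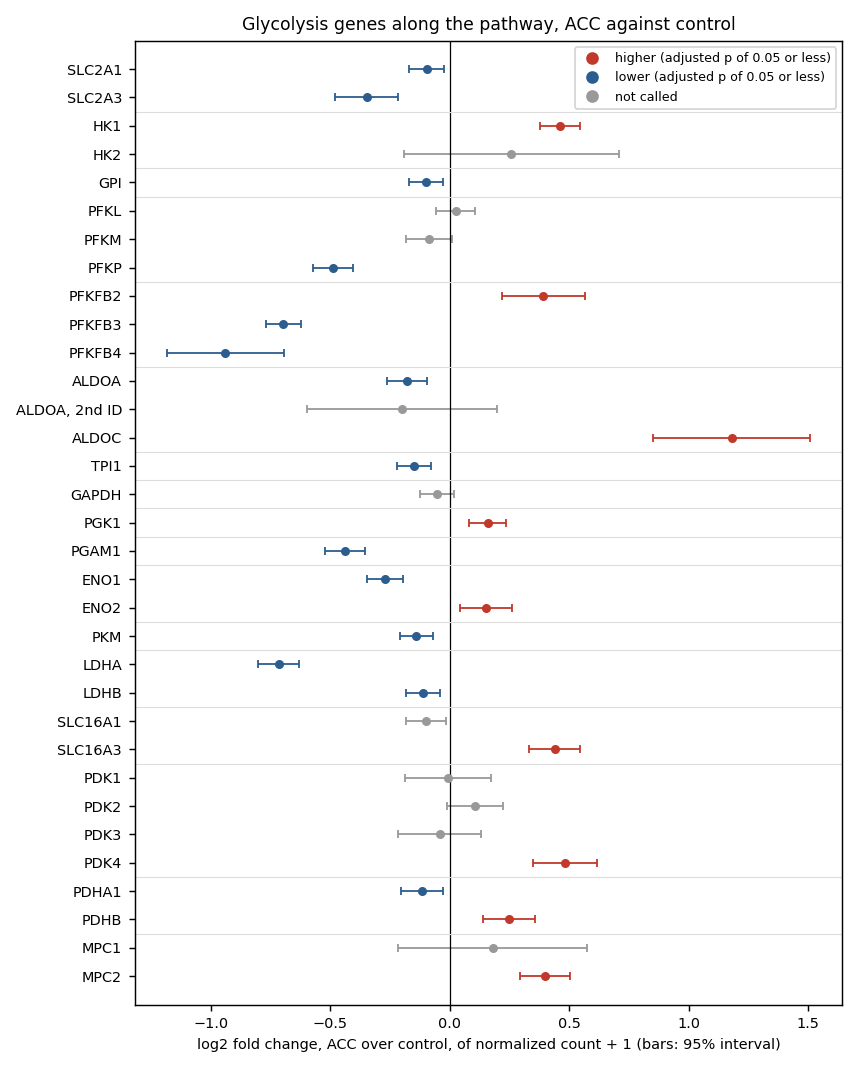
Log2 fold change (ACC over control, of normalized count + 1) of the 33 rows in pathway order, with the 95% interval from limma as bars and grey lines between steps. LDHA, PFKFB3 and PFKFB4 lie farthest below 0 and ALDOC farthest above it, and 10 rows are grey because they did not pass.

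The 3 members with the largest falls were PFKFB4, LDHA and PFKFB3, and the member with the largest rise was ALDOC. Their promoters are shown because hypoxia-inducible factors and MYC family proteins, textbook regulators of glycolytic genes, bind short cores that can be looked for in the letters. Each line is the 250 bases before the RefSeq start site on GRCh38.p14, 5′ to 3′ on the gene's strand, with every ACGTG or GCGTG on either strand in capitals.
LDHA: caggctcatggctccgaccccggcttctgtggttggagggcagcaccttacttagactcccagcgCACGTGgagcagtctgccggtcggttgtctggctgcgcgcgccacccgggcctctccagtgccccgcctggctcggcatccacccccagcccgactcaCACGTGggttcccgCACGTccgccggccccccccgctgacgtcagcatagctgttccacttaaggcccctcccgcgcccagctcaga
PFKFB3: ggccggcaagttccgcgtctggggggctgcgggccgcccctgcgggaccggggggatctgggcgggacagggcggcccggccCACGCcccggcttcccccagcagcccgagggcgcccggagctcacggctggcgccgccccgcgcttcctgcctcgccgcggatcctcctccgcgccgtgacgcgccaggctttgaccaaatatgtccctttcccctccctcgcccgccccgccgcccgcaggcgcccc
PFKFB4: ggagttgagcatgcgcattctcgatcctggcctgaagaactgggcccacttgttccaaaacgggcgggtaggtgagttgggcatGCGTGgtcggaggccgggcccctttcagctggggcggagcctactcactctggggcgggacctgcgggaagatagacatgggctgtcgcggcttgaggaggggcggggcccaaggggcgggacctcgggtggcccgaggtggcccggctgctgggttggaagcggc
ALDOC: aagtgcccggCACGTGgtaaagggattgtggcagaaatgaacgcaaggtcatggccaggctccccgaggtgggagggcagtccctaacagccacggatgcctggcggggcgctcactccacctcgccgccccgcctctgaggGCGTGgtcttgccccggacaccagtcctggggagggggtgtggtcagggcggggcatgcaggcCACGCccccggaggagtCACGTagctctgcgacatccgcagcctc
The windows are chr11:18394313-18394562 for LDHA (plus strand), chr10:6144671-6144920 for PFKFB3 (plus strand), chr3:48556804-48557053 for PFKFB4 (minus strand) and chr17:28576896-28577145 for ALDOC (minus strand). By the GENCODE annotation, the genes span chr11:18394560-18408425 (LDHA), chr10:6144934-6254644 (PFKFB3), chr3:48517684-48562015 (PFKFB4) and chr17:28573115-28576948 (ALDOC). The PFKFB4 window lies within that span, since the annotation has a start farther upstream, and the LDHA and ALDOC windows overlap the start of theirs. The LDHA window holds 5 matches to ACGTG, of which 4 come from 2 copies of the palindrome CACGTG, which reads as ACGTG on both strands. ALDOC, which moved the other way, also holds ACGTG (3 matches) and CACGTG (1 copy), and PFKFB3 and PFKFB4, which fell, hold no ACGTG and 1 GCGTG each. The cores were therefore found on both sides of the comparison in these 4 windows.

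Promoter windows were found for 29 of the 32 genes (not for SLC2A3, PFKFB2 and SLC16A1). ACGTG was present on either strand in 10 of the 29 (34.5%) and in 18.7% of 27305 promoters of the same length. GCGTG was present in 37.9% and 31.9%, CACGTG in 13.8% and 6.49%, and the GC box GGGCGG in 75.9% and 42.3%. By direction, ACGTG was in 4 of 8 windows of members called higher, 3 of 13 called lower and 3 of 8 not called. GCGTG was in 3, 4 and 4 of these, and GGGCGG in 7, 10 and 5. A match is a description of the letters only.

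Glucose enters through facilitative carriers, and both carrier genes of the list were lower with ACC. SLC2A1, which encodes GLUT1, the main basal glucose carrier of many tumor cells, had 5624, 5674 and 5754 normalized counts with ACC and 6248, 6065 and 5920.1 in control. The groups did not overlap but lay close, with a log2 fold change of -0.10 (95% interval -0.17 to -0.02, limma adjusted p = 0.0305). This call was lost without ACC replicate 1, 2 or 3 or control replicate 1 or 2 (limma adjusted p of 0.0593 to 0.129), without a trend in limma (adjusted p = 0.135) and under DESeq2 (adjusted p = 0.0554). SLC2A3, the high-affinity carrier GLUT3, had 765, 668 and 720.2 with ACC and 951, 954 and 838 in control, and it fell by 21.4% (log2 fold change -0.35, standard error 0.0624, limma adjusted p = 0.000166). Per kb of transcript, SLC2A3 made up 10.0 ± 0.655% of the pair with ACC and 11.7 ± 0.557% in control (± SD of 3 libraries), without overlap.

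Hexokinase traps glucose as glucose 6-phosphate, and this first step went the other way. HK1, the housekeeping isoenzyme that sits on mitochondria, had 2750.3, 2708 and 2823 normalized counts with ACC and 2011, 2072 and 1936 in control. Every ACC library lay above every control library, a rise of 37.6% (log2 fold change 0.46, standard error 0.0401, limma adjusted p = 2.92e-08). HK2, the inducible isoenzyme of many tumors, was barely expressed, at 38.2, 44.3 and 36.8 with ACC and 33.7, 24.9 and 42.7 in control. Its groups overlapped, and the 95% interval of its log2 fold change ran from -0.19 to 0.71 (limma adjusted p = 0.366), which left its direction unresolved. HK1 was 99.1% of the pair per kb with ACC and 98.9% in control. HKDC1, a hexokinase-like gene outside the 32, had 1403, 1369.6 and 1432 with ACC and 588, 579.7 and 662 in control and rose in the same direction as HK1 (log2 fold change 1.20, limma adjusted p = 3.93e-12).

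GPI, which turns glucose 6-phosphate into fructose 6-phosphate, differed little. Its normalized counts were 19503, 19109.8 and 19000.3 with ACC and 19858, 20692 and 21230.2 in control (log2 fold change -0.10, 95% interval -0.17 to -0.03, limma adjusted p = 0.0217). The call was lost without ACC replicate 2 or 3 or control replicate 2 or 3 (limma adjusted p of 0.0508 to 0.095) and without a trend in limma (adjusted p = 0.144).

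Phosphofructokinase commits the sugar to glycolysis, and of its 3 isoenzyme genes only the platelet type was called. PFKP had 8468, 8382 and 8393 normalized counts with ACC and 11654, 11221 and 12587 in control. The groups were far apart and the ACC libraries tightly grouped, and it fell by 28.7% (log2 fold change -0.49, standard error 0.0390, limma adjusted p = 8.93e-09). PFKL, the liver type, had 2885, 2856 and 2714 with ACC and 2804, 2799 and 2713 in control (log2 fold change 0.02, 95% interval -0.06 to 0.11, limma adjusted p = 0.669). PFKM, the muscle type, had 1231, 1235 and 1326 with ACC and 1367, 1316 and 1339 in control (log2 fold change -0.09, 95% interval -0.18 to 0.01, limma adjusted p = 0.147). Both overlapped between groups. The intervals of PFKL and PFKM lie above that of PFKP without touching it, though the difference between isoenzymes was not itself tested. PFKP remained the major form per kb, with 69.9 ± 0.169% of the 3 with ACC and 76.4 ± 1.24% in control, while PFKL made up 21.2 ± 0.585% and 16.2 ± 0.958% (± SD, n = 3 per group).

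The PFKFB enzymes make and break fructose 2,6-bisphosphate, the strongest activator of phosphofructokinase, and their genes held a pair of the largest falls. PFKFB3, whose product mainly makes the activator, had 11239, 11532 and 10920.0 normalized counts with ACC and 18845, 17801 and 17984 in control. It fell by 38.3% (log2 fold change -0.70, standard error 0.0346, limma adjusted p = 1.22e-11). PFKFB4 had 80.1, 97.3 and 79.8 with ACC and 160.0, 176 and 159 in control, and it fell by 47.9% (log2 fold change -0.94, standard error 0.116, limma adjusted p = 2.48e-06). Both fell in every ACC library relative to every control library, but PFKFB4 is a minor form. PFKFB2, the heart type, rose, with 405, 386 and 436 with ACC and 331, 273 and 335 in control (log2 fold change 0.39, standard error 0.0824, limma adjusted p = 0.000786). PFKFB3 held 96.8 ± 0.143% of the 3 transcripts per kb with ACC and 97.8 ± 0.0542% in control (± SD, n = 3 per group), so the summed level of this step followed it, at 0.623 of control. PFKFB4 shares 4.88% of its exon bases with UCN2, a peptide hormone gene on the same strand that also fell (log2 fold change -1.72, limma adjusted p = 1.85e-07).

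**Figure D2:**
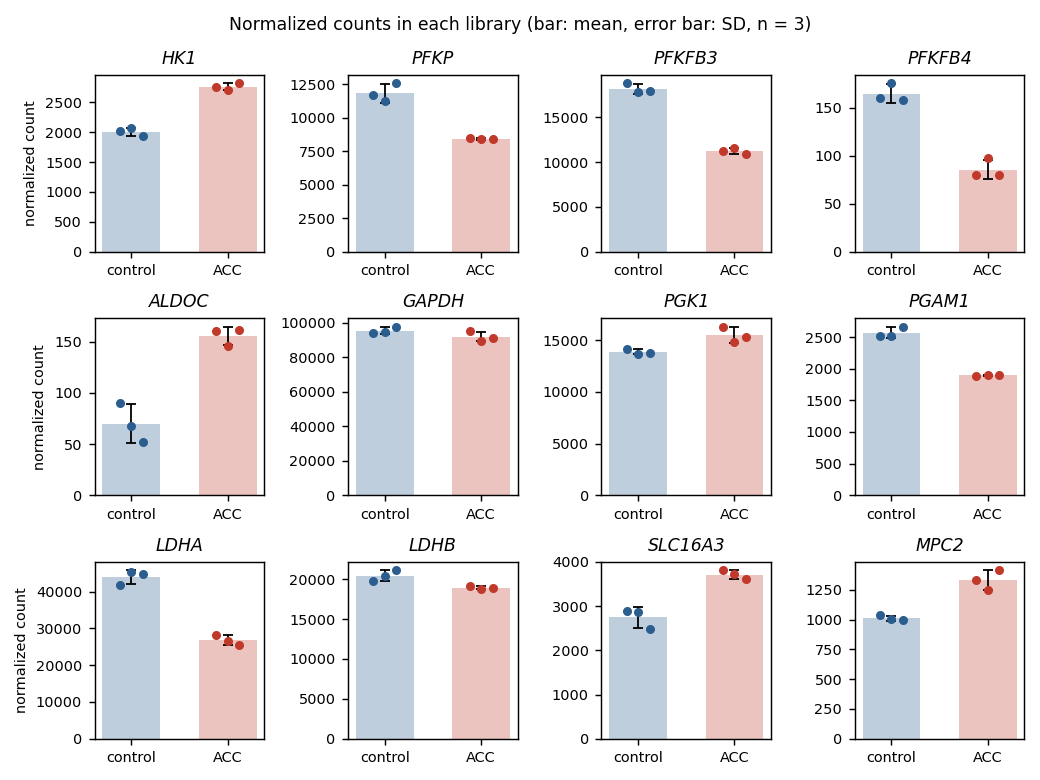
Normalized counts of 12 members in each library, with the control group in blue and ACC in red, bars for the mean and error bars for the SD of 3 libraries. The ACC points lie apart from the control points in every panel but that of GAPDH.

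Aldolase splits fructose 1,6-bisphosphate into 2 triose phosphates. ALDOA, the major form, had 2604, 2473 and 2495 normalized counts with ACC and 2764, 2842 and 2969 in control, and it fell by 11.7% (log2 fold change -0.18, standard error 0.0403, limma adjusted p = 0.00135). ALDOC, best known from brain, had 160.2, 145 and 162 with ACC and 89.6, 67.6 and 52.2 in control, a 2.26-fold rise (log2 fold change 1.18, standard error 0.156, limma adjusted p = 5.80e-06). All ACC libraries lay above all controls, which varied among themselves more than the ACC libraries did. ALDOC made up 5.92 ± 0.270% of the pair per kb with ACC and 2.44 ± 0.722% in control (± SD, n = 3 per group). The level and the share of ALDOA are uncertain and may be too low, and the share of ALDOC may be too high. How the counting treated reads in shared bases is not stated. Of the exon bases of ALDOA, 42.8% also belong to the second ID named ALDOA, ENSG00000285043, on the same strand. That ID had between 39.5 and 47.5 with ACC and between 38.9 and 59.8 in control, with overlapping groups (log2 fold change -0.20, 95% interval -0.60 to 0.20, limma adjusted p = 0.43).

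The steps from triose phosphate to phosphoglycerate, which include the most abundant transcript of the set (GAPDH), showed small changes of both signs. TPI1, which interconverts the trioses, had 18358, 17251 and 17409.6 normalized counts with ACC and 19526, 19418 and 19879 in control (log2 fold change -0.15, standard error 0.0335, limma adjusted p = 0.00126). GAPDH, which oxidizes glyceraldehyde 3-phosphate and makes NADH, had 95065, 89591 and 91256 with ACC and 93872, 94709 and 97789 in control. Its groups overlapped, and its log2 fold change was -0.05 with a 95% interval of -0.13 to 0.02 (limma adjusted p = 0.233). PGK1, the first ATP-making enzyme, went against its neighbours, with 16325, 14871 and 15338 with ACC and 14190.1, 13695 and 13772 in control (log2 fold change 0.16, standard error 0.0368, limma adjusted p = 0.00172). The calls of TPI1 and PGK1 were lost when limma was run without a trend (limma adjusted p of 0.0514 and 0.0681). GAPDH and PGK1 both serve as reference genes in RNA assays. Of 12 other common reference genes, 2 were higher and 4 lower. This stands beside 21.3% and 21.9% over all genes tested, and 31% and 36.5% among those with a mean of at least 1000. The reference gene ACTB, the cytoskeletal actin, had a log2 fold change of -0.71 (limma adjusted p = 4.93e-12), and GUSB, a lysosomal hydrolase, 0.50 (limma adjusted p = 1.01e-07). HPRT1 and PPIA fell and B2M rose (-0.31, -0.28 and 0.27, limma adjusted p of 1.21e-06 to 2.49e-05), and RPLP0, a ribosomal protein gene, had 0.08 (limma adjusted p = 0.0579). Genes for these abundant enzymes have many processed pseudogenes, so some of their reads may be uncertain.

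PGAM1, which moves the phosphate of phosphoglycerate, was lower by a larger and very even amount. Its normalized counts were 1892, 1895 and 1899.6 with ACC and 2521, 2525 and 2668 in control, and it fell by 26.2% (log2 fold change -0.44, standard error 0.0394, limma adjusted p = 4.36e-08). ENO1, the ubiquitous enolase, had 45237, 43344 and 43656 with ACC and 52721, 51355 and 55452 in control, and it fell by 17.1% (log2 fold change -0.27, standard error 0.0355, limma adjusted p = 5.33e-06). ENO2, the neuronal form, moved slightly up, with 1012, 1127 and 1054 with ACC and 977, 978 and 921 in control (log2 fold change 0.15, 95% interval 0.04 to 0.26, limma adjusted p = 0.0256). The ENO2 call was lost without ACC replicate 2 or 3 or control replicate 3 (limma adjusted p of 0.0596 to 0.141), without a trend in limma (adjusted p = 0.112) and under DESeq2 (adjusted p = 0.0603). ENO3, the muscle enolase outside the 32, fell (log2 fold change -0.47, limma adjusted p = 1.05e-06). PKM, pyruvate kinase, had 78820.3, 75924 and 76755 with ACC and 84132, 85037 and 85926 in control, and it fell by 9.26% (log2 fold change -0.14, standard error 0.0323, limma adjusted p = 0.00166). Gene counts do not separate the PKM1 and PKM2 splice forms.

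Lactate dehydrogenase showed the largest change of share among these steps, -10.4 percentage points for LDHA. LDHA, whose M subunit favours making lactate, had 28211, 26499 and 25532 normalized counts with ACC and 41700.1, 45318 and 44794 in control. The groups were far apart and LDHA fell by 39.1% (log2 fold change -0.72, 95% interval -0.80 to -0.63, limma adjusted p = 8.05e-11). LDHB, whose H subunit favours turning lactate back to pyruvate, had 19183, 18726 and 18914 with ACC and 19803, 20439 and 21150.4 in control (log2 fold change -0.11, 95% interval -0.18 to -0.04, limma adjusted p = 0.0114), a call that was lost without a trend (limma adjusted p = 0.111). Per kb of transcript, LDHA was 46.1, 45.1 and 43.97% of the pair with ACC and 55.0, 56.3 and 55.2% in control. With canonical transcript lengths, the major form was thus LDHB in all 3 ACC libraries and LDHA in all 3 controls. Which transcripts these cells make was not tested. Without the length correction LDHA stayed the larger count in both, at 58.5 ± 1.04% and 68.2 ± 0.612% (± SD, n = 3 per group), so the fall in its share did not need the correction but the crossing did. LDHD, a mitochondrial D-lactate dehydrogenase outside the 32, rose from 42.2 ± 3.43 normalized counts to 125 ± 6.28 (log2 fold change 1.55, limma adjusted p = 3.59e-08).

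Lactate crosses the plasma membrane with a proton on monocarboxylate carriers, and the export type was higher. SLC16A3, which encodes MCT4, the carrier of lactate-exporting cells, had 3809, 3729 and 3606 normalized counts with ACC and 2886, 2879 and 2474 in control. It rose by 35.6% (log2 fold change 0.44, standard error 0.0509, limma adjusted p = 1.16e-06), in the opposite direction to LDHA. SLC16A1, which encodes the high-affinity carrier MCT1, had 1624, 1579 and 1618 with ACC and 1713, 1726 and 1731 in control. Its groups did not overlap, yet it narrowly missed the threshold (log2 fold change -0.10, 95% interval -0.19 to -0.02, limma adjusted p = 0.0505), which it passed under scaling by total reads (limma adjusted p = 0.0353). Per kb, SLC16A3 made up 76.9 ± 0.568% of the pair with ACC and 69.6 ± 1.97% in control (± SD, n = 3 per group). BSG, the membrane partner that brings both carriers to the surface, also rose, from 13853 ± 98.6 to 17021 ± 299.9 (log2 fold change 0.30, limma adjusted p = 3.62e-07).

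**Figure D3:**
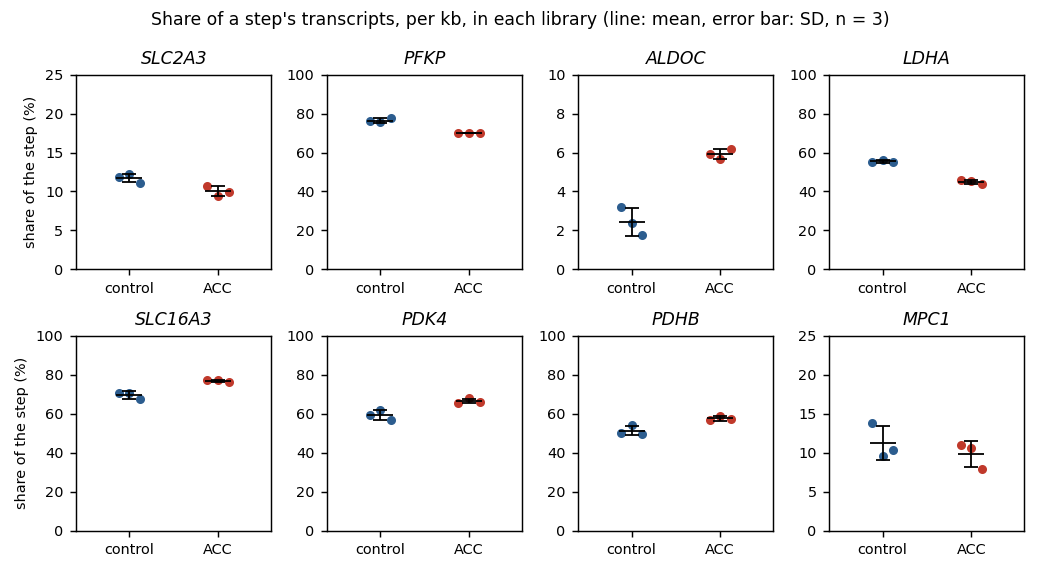
Share of a step's transcripts per kb held by 1 member in each library, with lines for the mean and error bars for the SD of 3 libraries, and a vertical axis from 0 that differs between panels. LDHA drops from about 55.5 to 45.1% and SLC16A3 climbs from 69.6 to 76.9%, while the MPC1 points overlap.

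At the entry to mitochondria 3 of 8 genes were higher, 1 was lower and 4 did not pass. This stands beside 21.3% higher and 21.9% lower over all genes tested, and 31% and 36.5% among those with a mean of at least 1000. The pyruvate carrier of the inner membrane needs both MPC1 and MPC2. MPC2 had 1335, 1250.2 and 1414 normalized counts with ACC and 1036, 1003 and 992 in control, a rise of 31.7% (log2 fold change 0.40, standard error 0.0504, limma adjusted p = 3.47e-06). MPC1 was scarce, with 67.1, 60.7 and 49.1 with ACC and 67.5, 43.6 and 46.5 in control, and its interval of -0.22 to 0.57 on the log2 scale left its direction unresolved (limma adjusted p = 0.482). MPC1 made up 9.84 ± 1.72% of the pair per kb with ACC and 11.3 ± 2.23% in control. MPC2 shares 21.8% of its exon bases with DCAF6 on the other strand, which had a log2 fold change of 0.08 (limma adjusted p = 0.135).

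The E1 subunit genes of pyruvate dehydrogenase moved apart. PDHB, the E1 beta subunit, had 1650.0, 1691 and 1701 normalized counts with ACC and 1321, 1545 and 1391 in control (log2 fold change 0.25, standard error 0.0517, limma adjusted p = 0.000728). PDHA1, the E1 alpha subunit that the kinases phosphorylate, had 2806, 2618 and 2831 with ACC and 2927, 2906 and 3117 in control (log2 fold change -0.12, 95% interval -0.21 to -0.03, limma adjusted p = 0.0329). The groups did not overlap for either, but the PDHA1 call was lost without ACC replicate 2 or control replicate 3 (limma adjusted p of 0.168 and 0.112), without a trend in limma (adjusted p = 0.165) and under DESeq2 (adjusted p = 0.0672). PDHA1 shares 19.3% of its exon bases with MAP3K15 on the other strand, which rose (log2 fold change 0.38, limma adjusted p = 0.00202).

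The PDK kinases switch pyruvate dehydrogenase off, and 1 of the 4 was called. PDK4, a kinase known for its induction by fasting and fatty acids, had 2763, 2698 and 2665 normalized counts with ACC and 1949.7, 2194 and 1704 in control. Every ACC library was above every control library, a rise of 39.7% (log2 fold change 0.48, standard error 0.0632, limma adjusted p = 5.18e-06). PDK1, the kinase known for its induction by hypoxia, had 251, 230.2 and 252 with ACC and 248, 267 and 223 in control, with overlapping groups and a 95% interval of -0.19 to 0.17 (limma adjusted p = 0.957). PDK2 had 703, 643 and 696 with ACC and 623, 648 and 625 in control (95% interval -0.01 to 0.22, limma adjusted p = 0.136), and PDK3 had 306, 254 and 264 with ACC and 293, 281 and 273 in control (95% interval -0.22 to 0.13, limma adjusted p = 0.718). PDK4 was the major form, at 66.6 ± 1.20% of the 4 per kb with ACC and 59.4 ± 2.56% in control (± SD, n = 3 per group). The antisense partner SAMD14, which shares 38.6% of the exon bases of PDK2, fell (log2 fold change -1.24, limma adjusted p = 7.51e-05).

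Set against each other per kb of transcript, the steps spanned a wide range. GAPDH was the highest, with 71573 ± 2184 normalized counts per kb with ACC and 74286 ± 1605 in control (± SD, n = 3 per group). PKM followed with 33478 ± 647 and 36890.0 ± 389, and ENO1 with 24749.8 ± 569.8 and 29857 ± 1171. In control the next were LDHA (19606 ± 872), LDHB (15705 ± 517) and TPI1 (14514 ± 178), and with ACC LDHB (14537 ± 176), TPI1 (13081 ± 443) and LDHA (11935 ± 605). Summed over the isoenzymes of a step, the ACC level was 0.623 of control for the PFKFB enzymes, 0.737 for phosphoglycerate mutase, 0.750 for lactate dehydrogenase, 0.778 for phosphofructokinase and 0.833 for enolase. It was 1.37 of control for hexokinase, 1.30 for the pyruvate carrier, 1.24 for the PDK kinases, 1.23 for lactate transport and 1.12 for phosphoglycerate kinase. Lengths are those of the canonical transcript of each gene, so levels between genes depend on which transcript these cells make.

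**Figure D4:**
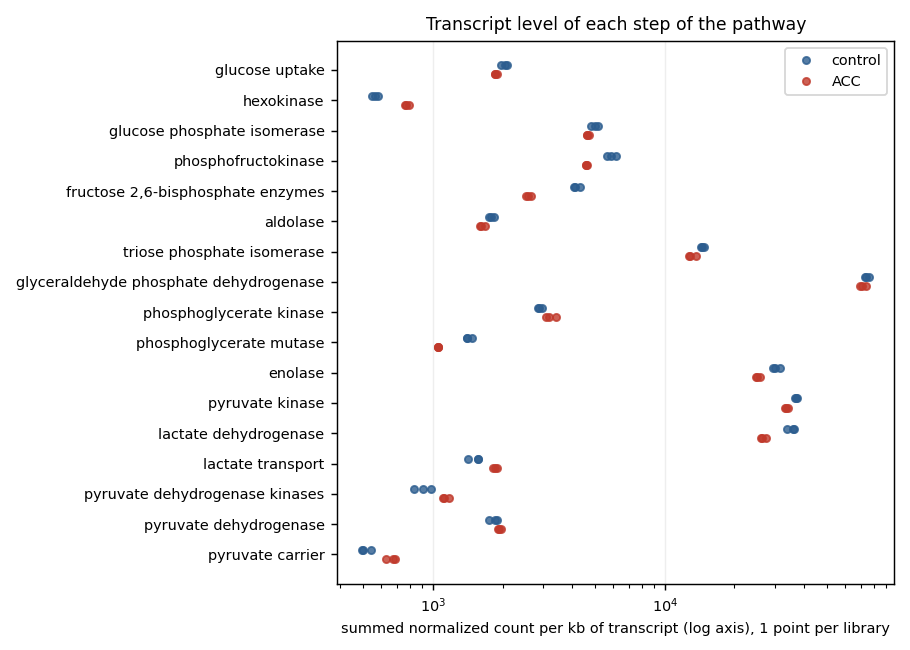
Summed normalized count per kb of transcript for each step, in pathway order on a log axis, with 1 point for each library in blue (control) or red (ACC). The points of the 2 groups overlap for glyceraldehyde phosphate dehydrogenase and for no other step.

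The rest of the pathway and its branches were read from gene lists. The counts called in these lists stand beside 21.3% higher and 21.9% lower over all genes tested. Among 18 tested glycolysis genes outside the 32, 6 were higher and 6 lower, with a median log2 fold change of 0.00. SLC2A12, a glucose carrier, fell (log2 fold change -1.21, limma adjusted p = 2.78e-07), and ADPGK, an ADP-dependent glucokinase, did not pass (0.09, limma adjusted p = 0.0775). Of 10 further genes of pyruvate dehydrogenase and pyruvate carboxylation, 1 was higher and 2 lower, with DLAT, its E2 subunit, at -0.09 (limma adjusted p = 0.137). The phosphatase subunit gene PDPR rose (log2 fold change 0.15, limma adjusted p = 0.00617). PC, which carboxylates pyruvate in mitochondria, fell from 1339 ± 70.8 to 830.2 ± 21.4 normalized counts (log2 fold change -0.69, limma adjusted p = 2.55e-09), and DLD, the shared E3 subunit, whose groups overlapped, fell too (log2 fold change -0.30, limma adjusted p = 0.0032). Of 6 tested gluconeogenesis genes, 2 were higher and 1 lower, the latter again PC, which is in both lists. PCK2, the mitochondrial enzyme that makes phosphoenolpyruvate, rose from 917 ± 41.0 to 2824 ± 123 (log2 fold change 1.62, limma adjusted p = 8.71e-15). SLC37A4, the glucose 6-phosphate carrier of the endoplasmic reticulum, rose (0.24, limma adjusted p = 0.00225), and G6PC3, a glucose 6-phosphatase, had a log2 fold change of 0.01 (limma adjusted p = 0.902).

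The pentose phosphate pathway, which branches off at glucose 6-phosphate and makes NADPH, had more genes higher than lower. Of 10 tested, 6 were higher and 2 lower, with a median log2 fold change of 0.15 beside 0.00 over all genes. Over all genes 21.3% were higher and 21.9% lower. Among genes with a mean of at least 1000, 31% were higher and 36.5% lower, with a median log2 fold change of -0.02. PGD, the 6-phosphogluconate dehydrogenase, rose from 48496 ± 1415 normalized counts to 70765 ± 746 (log2 fold change 0.55, limma adjusted p = 2.14e-10). TALDO1, the transaldolase, rose (0.34, limma adjusted p = 2.86e-07), and RPIA, the ribose phosphate isomerase, fell (-0.47, limma adjusted p = 7.63e-05). Of the phosphoribosyl pyrophosphate synthetases, PRPS2 fell (-0.37, limma adjusted p = 5.86e-06) and PRPS1 had -0.10 (limma adjusted p = 0.0784). Without control replicate 1, 4 of these genes were lower. Of 13 glycogen genes, 2 were higher and 2 lower, and the glycogen phosphorylases split, with PYGB, the brain form, at 0.60 and PYGL, the liver form, at -0.65 (limma adjusted p = 6.68e-11 and 1.91e-10). GBE1, the branching enzyme, rose (0.42, limma adjusted p = 5.96e-07), GYG2, a glycogenin, fell (-0.36, limma adjusted p = 3.61e-05), and UGP2, which makes UDP-glucose, had -0.04 (limma adjusted p = 0.487).

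Genes of the citrate cycle and of the NADH shuttles changed in both directions. Of 16 citrate cycle genes, 3 were higher and 5 lower, the lower count being 2 to 3 without ACC replicate 2 or 3 or control replicate 1 or 3 (2, 2, 3 and 3). CS, citrate synthase, had a log2 fold change of -0.22 and FH, fumarase, -0.27 (limma adjusted p = 0.000147 and 3.18e-05), while SUCLG2, a succinyl-CoA ligase subunit, had 0.35 (limma adjusted p = 9.95e-07) and MDH2, malate dehydrogenase, -0.01 (limma adjusted p = 0.809). SUCLG1, another succinyl-CoA ligase subunit, fell (-0.13, limma adjusted p = 0.0265). Of 9 shuttle genes, 5 were higher and 2 lower. The higher count was 3 without ACC replicate 3, and the lower count was 1 without ACC replicate 2 or control replicate 3. GOT1, the cytosolic aspartate aminotransferase, rose (0.23, limma adjusted p = 0.000664) and its mitochondrial counterpart GOT2 fell (-0.14, limma adjusted p = 0.00487). The glycerol phosphate dehydrogenase genes GPD1L and GPD2 rose (0.19 and 0.14, limma adjusted p = 0.0124 and 0.00614), SLC25A12, an aspartate-glutamate carrier, fell (-0.18, limma adjusted p = 0.0198), and MDH1, the cytosolic malate dehydrogenase, had -0.07 (limma adjusted p = 0.103). GPD1, at few reads and named after its values were seen, rose from 7.15 ± 0.427 to 19.2 ± 3.81 normalized counts (1.29, limma adjusted p = 0.00187).

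Regulators of glucose use and targets of hypoxia-inducible factors moved in both directions. Of 20 regulators, 10 were higher and 4 lower. TXNIP, an inhibitor of glucose uptake that is induced by glucose phosphates through MondoA, had 479, 564 and 568 normalized counts with ACC and 14.5, 5.33 and 11.4 in control (log2 fold change 5.65, limma adjusted p = 7.81e-13). MLXIPL, which encodes the glucose-sensing factor ChREBP, rose (log2 fold change 1.36, limma adjusted p = 2.60e-08), as did its partner MLX (0.46, limma adjusted p = 4.59e-07). MLXIP, the gene for MondoA, named after its values were seen, fell (-0.27, limma adjusted p = 3.00e-05). ESRRA, an orphan nuclear receptor of energy metabolism, rose (0.49, limma adjusted p = 3.10e-07). HIF1A, the hypoxia factor subunit, had a log2 fold change of 0.04 (limma adjusted p = 0.393) and EPAS1, its paralog HIF-2 alpha, fell (-0.41, limma adjusted p = 1.72e-08). Of 20 hypoxia targets outside glycolysis, 6 were higher and 7 lower, with the lower count at 4 without ACC replicate 2 or 3 or control replicate 1. EGLN3, an oxygen-sensing hydroxylase, and NDRG1, a stress-response gene, rose (1.00 and 0.61, limma adjusted p = 4.78e-08 and 1.46e-09), as did DDIT4, an inhibitor of mTORC1 signalling (0.39, limma adjusted p = 1.87e-07). ANGPTL4, a lipase inhibitor, and PLOD2, a collagen lysyl hydroxylase, fell (-1.23 and -0.88, limma adjusted p = 2.34e-12 and 1.22e-12). P4HA2, a collagen prolyl hydroxylase, had -0.13 (limma adjusted p = 0.0551).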

How the data were processed

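RNA-seq of 6 A549 libraries (3 ACC, 3 control) was analysed, grouped by the titles in the labels. By the study's methods, reads were trimmed with Cutadapt, mapped to GRCh38 with STAR 2.4.2a and counted per gene with htseq-count. The authors deposited signal values, which are these counts scaled by DESeq2 size factors. The deposited log2 fold changes and p-values of the authors' own comparison were not used. In each library the values step by what 1 read is worth (100% whole, to 0.1 read), which gave back the reads, 21771645 to 24805486 per library. On these, edgeR's quasi-likelihood test called 4208 genes higher and 4153 lower.

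The main test was limma (trend on) for log2(normalized count + 1) of 19318 genes whose sum over libraries was 10 or more, two-sided, with Benjamini-Hochberg adjustment and 95% intervals. R 4.3.3, limma 3.58.1, edgeR 4.0.16 and DESeq2 1.42.0 were used. A simulation of ACC against control held 19291 genes, with only 50 altered at each size of change. Every simulated gene was given the same biological coefficient of variation, 3.77%. Altered genes were drawn only from those with a mean normalized count of at least 30. There limma called 78% of the genes altered 1.25-fold and 92% at 1.5-fold. At 2-fold, and likewise at 4-fold, 100% were called, beside 0.021% of the unaltered genes. In the measured data 43.3% of genes were called in either direction, far from the simulated setting. The simulated rates therefore need not hold for the measured comparison.

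Members and gene lists were chosen with earlier results of these data known. All members are named. From each other pathway or reference list the text names up to 5 called genes with the smallest adjusted p and a mean of at least 30 in the higher group, and the most abundant gene not called; 2 genes that meet the rule are not reported here, and MLXIP and GPD1 were added after their values were seen. For the strand setting of the counting, nothing is stated in the sources used here, so a gene and its antisense partner cannot be told apart. Gene positions, lengths and shared exon bases are from GENCODE on GRCh38 and promoters from RefSeq on GRCh38.p14. By the study's methods the reads were counted on an earlier Ensembl annotation. Lengths and shared bases can therefore differ from those used in the counting. A planned comparison of isoenzyme proteins was not run.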

Additional observations from a re-analysis of the deposited data

How the results depend on the processing

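Alternatives were other scalings (TMM, total reads, total reads without mitochondrial genes), pseudocounts of 0.5 and 5, no filter or 30 reads in 1 library, limma without a trend, voom, edgeR, DESeq2, a replicate block and leaving out each library. Over 594 values of members under alternatives, 563 kept direction and side of the threshold, 24 missed it, 4 newly passed it (all SLC16A1, limma adjusted p of 0.0336 to 0.0491) and 3 changed sign. For 23 of the 33 rows nothing changed. The sign changes were in uncalled genes, PDK1 (log2 fold change 0.03 without ACC replicate 2 and 0.05 without control replicate 2) and PDK3 (0.01 without ACC replicate 2).

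The replicate numbers did not pair the libraries (correlations of same-numbered deviations -0.13, 0.04 and -0.03 over 13860 genes), and with the replicate block 9 members were higher and 14 lower, the same counts as without it. The scaling without mitochondrial genes moved the median of all genes to 0.01 and that of the members to -0.08.

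Without a trend, the calls of SLC2A1, GPI, TPI1, PGK1, ENO2, LDHB and PDHA1 were lost, so that 9 members were called lower by limma, 1 gene of the pyruvate dehydrogenase list lower, 2 of the citrate cycle lower, 3 shuttle genes higher and 0 lower, and 4 hypoxia targets lower. DESeq2 called 3 citrate cycle genes, 1 shuttle gene and 4 hypoxia targets lower. The cause was not tested. Leaving out 1 library gave 11 to 13 members lower, 0 to 1 higher and 0 to 1 lower at the study's thresholds, a members' median of -0.0966 to -0.0693 (the latter without ACC replicate 2), PDK1 at -0.075 to 0.053 and PDK3 at -0.1222 to 0.01, and, in the other lists, 2 to 4 pentose phosphate genes lower, 2 to 5 citrate cycle genes lower, 3 to 5 shuttle genes higher and 1 to 2 lower, and 4 to 9 hypoxia targets lower. Without length correction, the share of PFKFB2 in its step differed by 1.82 percentage points and that of ENO2 by 0.585, beside 1.17 and 0.459 with it. HK2, MPC1 and the second ALDOA ID had few reads and standard errors of 0.214, 0.187 and 0.188 (log2), wider than those of the other members.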
